A study of Homo sapiens with 6 samples.

Results

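The regulated secretory pathway of neuroendocrine cells was examined in H146 small-cell lung cancer (SCLC) cells through 35 genes, listed by name. They comprise 6 granins, 5 prohormone-processing genes, 3 genes for peptide and amine products, 4 neuronal markers and 17 genes of the exocytosis machinery. These are 35 of the 28395 genes in the count table, of which 34 had enough reads to enter the test over 14777 genes. H146 (NCI-H146) is an established SCLC cell line. All libraries came from this single line, collected on day 2 after siRNA transfection. The control group received a negative control siRNA and kept the wild-type genotype, and the other group received a KIFC1 siRNA and is labelled as *KIFC1* knockdown, with 3 biological replicates in each. The KIFC1 siRNA libraries share 1 name stem (KD_2), and no second KIFC1 siRNA is among the samples, so loss of *KIFC1* and any other action of this siRNA cannot be told apart. The labels do not say whether the replicates were separate cultures or days, and p-values measure the spread between these libraries.

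*KIFC1*, a minus-end-directed kinesin that clusters centrosomes, had 14, 4 and 14 reads in the control libraries and 1, 1 and 0 reads in the KIFC1 siRNA libraries. Its fitted log2 fold change was -3.66 ± 0.82 (standard error; edgeR adjusted p = 0.0739), and it was 0.00459 when replicate number entered the fit as a block. Libraries held 15392374 to 17754458 counts, and mitochondrial genes took 8.31% to 13.1% of them.

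Neuroendocrine cells store peptide hormones and amines in dense-core granules, and they also carry small synaptic-type vesicles. Granins aggregate in the trans-Golgi network and help to form granules. Prohormone convertases cut peptide precursors at basic residues, a carboxypeptidase trims the new ends, and an amidating enzyme finishes many of the peptides. Release follows calcium entry, when SNARE proteins fuse the vesicle with the plasma membrane under the control of synaptotagmins, complexins and priming factors. SCLC of the neuroendocrine-high kind is known for these products, and several of them serve as diagnostic markers.

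The labelled cell type was checked against markers first. Of 11 neuroendocrine SCLC markers, 9 passed the filter, among them the neuroendocrine transcription factor *INSM1* at 679.7 ± 56.0 scaled counts per 1e6 (CPM, SD, n = 3) with control siRNA. *NEUROD1* stayed at 0 to 5 reads and *NKX2-1* at 1 to 11 reads in every library. Of 10 markers of non-neuroendocrine cells, only *MYC*, *CD44* and *HES1* passed the filter, and the other 7, *POU2F3*, *YAP1*, *REST*, *VIM*, *AXL*, *CAV1* and *ANXA1*, had at most 23 reads in any library. The summed level of the neuroendocrine list ran from 2756 to 2901 CPM with control siRNA and from 2782 to 3095 CPM with KIFC1 siRNA. The summed level of the non-neuroendocrine list ran from 245.8 to 262 CPM and from 267 to 307.9 CPM. Without *MYC* and *CD44*, the other 8 non-neuroendocrine markers summed to 3.43 to 4.45 CPM with control siRNA and to 4.34, 8.04 and 4.41 CPM with KIFC1 siRNA.

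Before the levels, the DNA around annotated transcript starts was read, since many granule genes are known to answer to cyclic AMP. RefSeq start-site windows (GRCh38.p14, 250 bases before to 50 bases after the start) were matched for 28 of the 35 genes, and not for *CHGB*, *SCG2*, *ELAVL3*, *STMN2*, *SNAP25*, *CPLX1* and *RIMS2*. The cyclic AMP response element TGACGTCA, which reads the same on both strands, occurred in a window of *CHGA*, *VGF*, *PCSK1* and *SYN1*, that is in 4 of 28 genes (14.3%), against 3.73% of the 11549 tested genes with a window. The E-box CAGCTG, also the same on both strands, occurred in 6 of 28 genes (21.4%), against 22.5% of tested genes. The half-sites of the RE1 element bound by the repressor REST, CAGCACC and GGACAG set 2 bases apart on either strand, occurred in *SYN1* alone, 1 of 28 genes, against 0.0779% of tested genes. These counts describe letters in a window and not binding. The 60 bases around each response element are shown in the direction of the gene, with the element in capitals, because 3 of the 4 genes encode granule cargo or its processing enzyme. The element starts 54 bases before the RefSeq start of its window in *CHGA*, 79 in *VGF*, 77 in *PCSK1* and 159 in *SYN1*. For *PCSK1* that start lies inside the gene as GENCODE 44 bounds it.
CHGA (plus strand, chr14:92923070-92923129): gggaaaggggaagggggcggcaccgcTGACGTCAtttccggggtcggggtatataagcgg
VGF (minus strand, chr7:101165615-101165674): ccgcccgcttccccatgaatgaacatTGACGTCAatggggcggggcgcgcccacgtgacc
PCSK1 (minus strand, chr5:96433292-96433351): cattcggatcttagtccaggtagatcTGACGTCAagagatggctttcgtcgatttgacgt
SYN1 (minus strand, chrX:47619983-47620042): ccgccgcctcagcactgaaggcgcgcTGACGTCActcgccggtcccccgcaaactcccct
The RE1 half-sites of *SYN1* lie upstream of its response element, with the motif and its 2 spacer bases in capitals.
SYN1 (minus strand, chrX:47620048-47620107): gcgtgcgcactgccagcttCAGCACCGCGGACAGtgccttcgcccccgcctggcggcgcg

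In control siRNA cells, levels between genes were compared per length, as CPM per kilobase (kb) of merged exon. The 34 tested genes had a median of 25.1 CPM per kb, against 5.02 for the 14325 tested genes with a length. Of them, 31 lay above that median and 25 lay above the 75 percentile of tested genes. The order ran from *UCHL1* (558 ± 67.2 CPM per kb, SD, n = 3) to *CHGA* (2.54 ± 0.382 CPM per kb). Of the 33 neighbouring pairs in this order, 24 had overlapping control libraries, so most neighbours did not differ beyond their spread. The gene length used moved 8 genes by more than 3 places when the longest transcript took the place of merged exons.

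**Figure D1:**
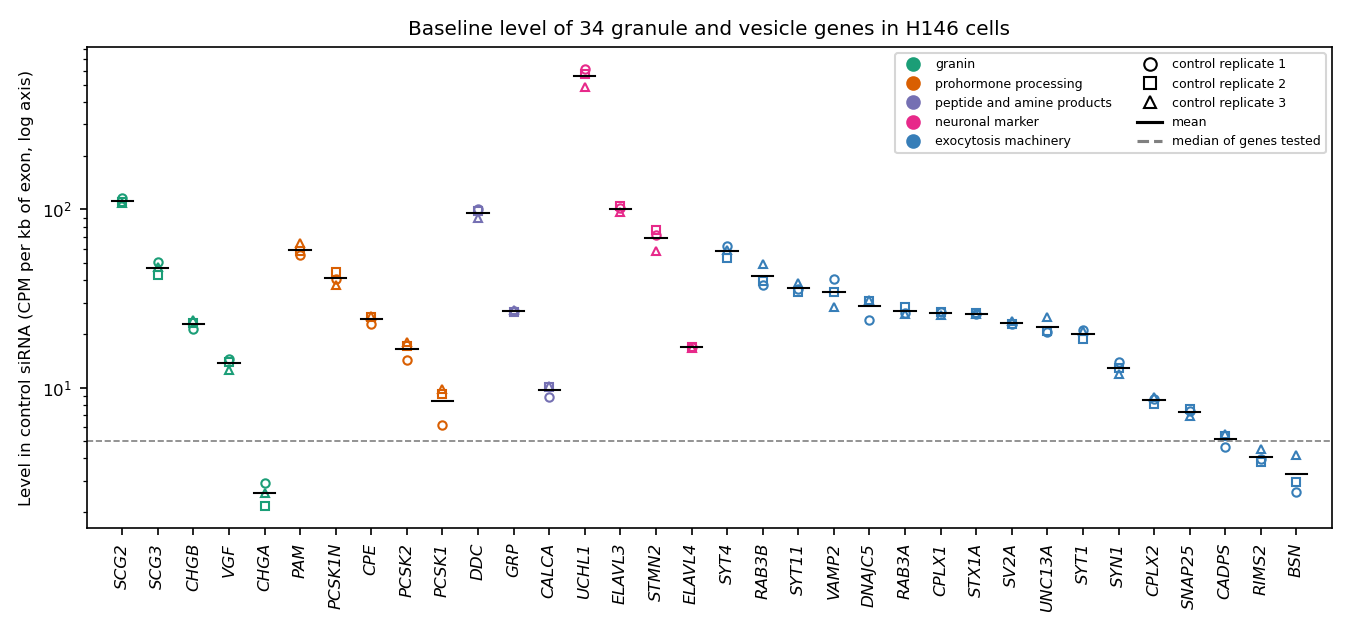
Level of each of the 34 tested genes in the 3 control siRNA libraries, in CPM per kb of merged exon on a log axis, grouped by role, with the mean as a bar and the median of all tested genes (5.02) dashed. *UCHL1* stands at 558 and *CHGA* at 2.54, and 31 genes lie above the dashed line.

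Granins are the acidic proteins that pack the dense-core granule. *SCG2* (secretogranin II) was the highest of them at 111 ± 4.24 CPM per kb (SD, n = 3), followed by *SCG3* at 47.1 ± 3.91, *CHGB* at 22.7 ± 1.31 and *VGF* at 13.7 ± 0.956. *CHGA*, which encodes chromogranin A, the granin most used in diagnosis, lay at the 34.1 percentile of tested genes, whereas *SCG2* lay at the 98.6 percentile. *SCG5*, which encodes the chaperone of prohormone convertase 2, had 0 reads in all 6 libraries. A count of 0 allows up to 3 reads per library, or 0.169 to 0.195 CPM at these depths, counting error only. In the annotation, 51.4% of the exon bases of *SCG5* also belong to *ARHGAP11A-SCG5*, a readthrough gene on the same strand. How the authors counted reads that fall on overlapping genes is not given in the sources used here, and the part of this overlap in the value of *SCG5* was not tested. Of the other genes of the set, *SYN1* (24.9%) and *VAMP2* (11.9%) shared the most exon bases with another annotated gene, also on the same strand. The part of these overlaps in their values was not tested either.

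Among the processing genes, *PAM*, the peptide-amidating enzyme, was highest at 59.6 ± 4.67 CPM per kb (SD, n = 3). *PCSK1N*, which encodes proSAAS, an inhibitor of prohormone convertase 1, followed at 41.0 ± 3.55. *CPE*, the carboxypeptidase that trims basic residues, reached 24.3 ± 1.33. The convertases themselves were lower, with *PCSK2* at 16.5 ± 2.00 and *PCSK1* at 8.43 ± 1.97 CPM per kb. *PCSK1* therefore stood below its inhibitor in every control library on this scale. Of the products, *DDC*, the decarboxylase that makes serotonin and dopamine from their precursors, reached 96.1 ± 5.65 CPM per kb. *GRP*, the bombesin-like peptide known as an SCLC growth factor, reached 26.8 ± 0.401, and *CALCA*, the calcitonin and CGRP precursor, 9.68 ± 0.732.

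Of the 4 neuronal markers, *UCHL1*, *ELAVL3* and *STMN2* held ranks 1, 3 and 5 of the set, and *ELAVL4* held rank 23. *UCHL1*, a neuronal deubiquitinase used as the marker PGP9.5, exceeded every other gene of the set in all control libraries. *ELAVL3* and *ELAVL4*, which encode the RNA-binding Hu antigens of SCLC-associated autoimmunity, reached 101 ± 3.74 and 16.8 ± 0.125 CPM per kb (SD, n = 3). *STMN2*, a microtubule regulator of growing neurites, reached 68.9 ± 9.56. In the exocytosis machinery the range ran from 58.2 ± 4.50 CPM per kb for *SYT4* to 3.25 ± 0.840 for *BSN*, a large active-zone scaffold. The calcium sensor *SYT1* (20.1 ± 1.27) lay below both *SYT4* and *SYT11* (36.2 ± 2.36), synaptotagmins known for not binding calcium through their first C2 domain. The SNARE genes were at 34.4 ± 6.15 for *VAMP2*, 26.0 ± 0.262 for *STX1A* and 7.30 ± 0.361 for *SNAP25*. The last value depends on length, since *SNAP25* has 20369 bases of merged exon but a longest transcript of 6478 bases, on which its level was 23.0 CPM per kb.

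The second question was whether these genes differed between the groups. In bulk RNA, fewer cells of a kind and less RNA per cell cannot be told apart, so each difference is one of the whole culture. None of the 34 tested genes had an adjusted p under 0.05 in edgeR, where 0.697% of all 14777 genes did. At an unadjusted p under 0.05 in edgeR there were 9 genes, 4 higher and 5 lower after KIFC1 siRNA, or 26.5% of the 34 against 9.26% of all genes. DESeq2 on the same genes called 2 of the 34 at an adjusted p under 0.05 (5.88%, against 1.85% of all genes). Libraries with the same replicate number deviated together, and an edgeR fit blocked on that number called 5 of the 34 (14.7%, against 5.83% of all genes). The groups did not overlap in 11 of the 34 genes (32.4%, against 15.5% of all genes), 5 of them higher and 6 lower after KIFC1 siRNA. The 34 genes also had a higher median level than tested genes with a length (25.1 against 5.02 CPM per kb with control siRNA). The shares were not matched for level, and the part of level in them was not tested. The median log2 fold change of the 34 was 0.07, with 21 positive and 13 negative, beside a median of 0.01 over all genes, of which 52.1% were positive. *CHGA* alone differed by more than 1.5-fold, 1 of 34 genes (2.94%) against 4.25% of all genes.

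**Figure D2:**
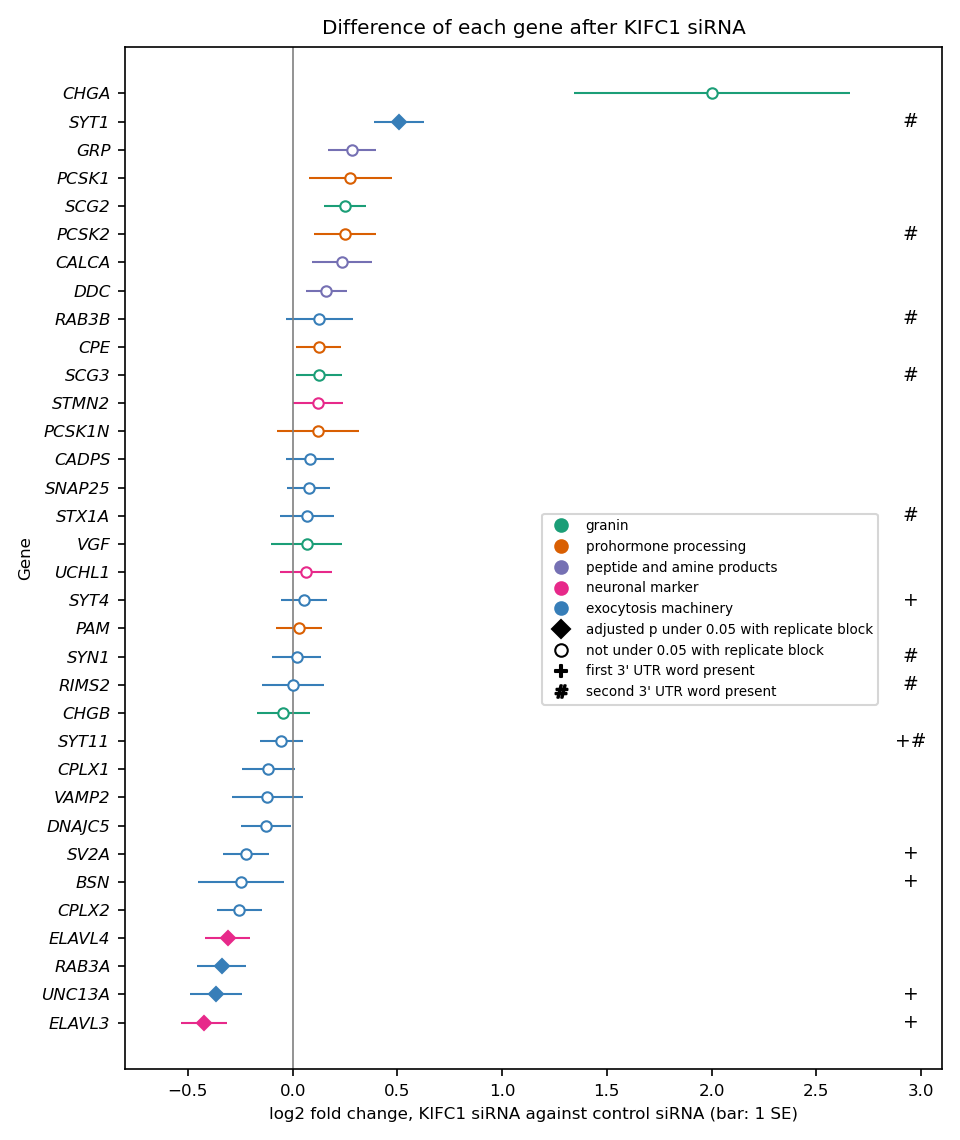
Log2 fold change, KIFC1 siRNA against control siRNA, of each tested gene with 1 standard error, coloured by role. Filled diamonds mark the 5 genes with an adjusted p under 0.05 in edgeR with the replicate block, + marks the word GAGATCT and # the word GCAACC in the 3' UTR; *CHGA* lies at 2.00 with the widest error and *ELAVL3* is lowest at -0.42.

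By role, the granins, processing genes and products leaned upwards and the exocytosis genes were mixed. Of the 5 granins tested, 4 had a positive log2 fold change, as had all 5 processing genes and all 3 products, and 7 of the 17 exocytosis genes. The medians were 0.12 for the granins, 0.12 for the processing genes, 0.24 for the products, -0.12 for the neuronal markers and -0.05 for the exocytosis genes. Over all tested genes the lower and upper quartiles were -0.12 and 0.13, so the granin and processing medians lay within them. None of the processing genes had an unadjusted p under 0.05 in edgeR. Single libraries changed the sign of *CHGB*, *VGF*, *PCSK1N* and *PAM* when left out. Together the 35 genes took 0.600% to 0.633% of all counts with control siRNA and 0.608% to 0.629% with KIFC1 siRNA.

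**Figure D3:**
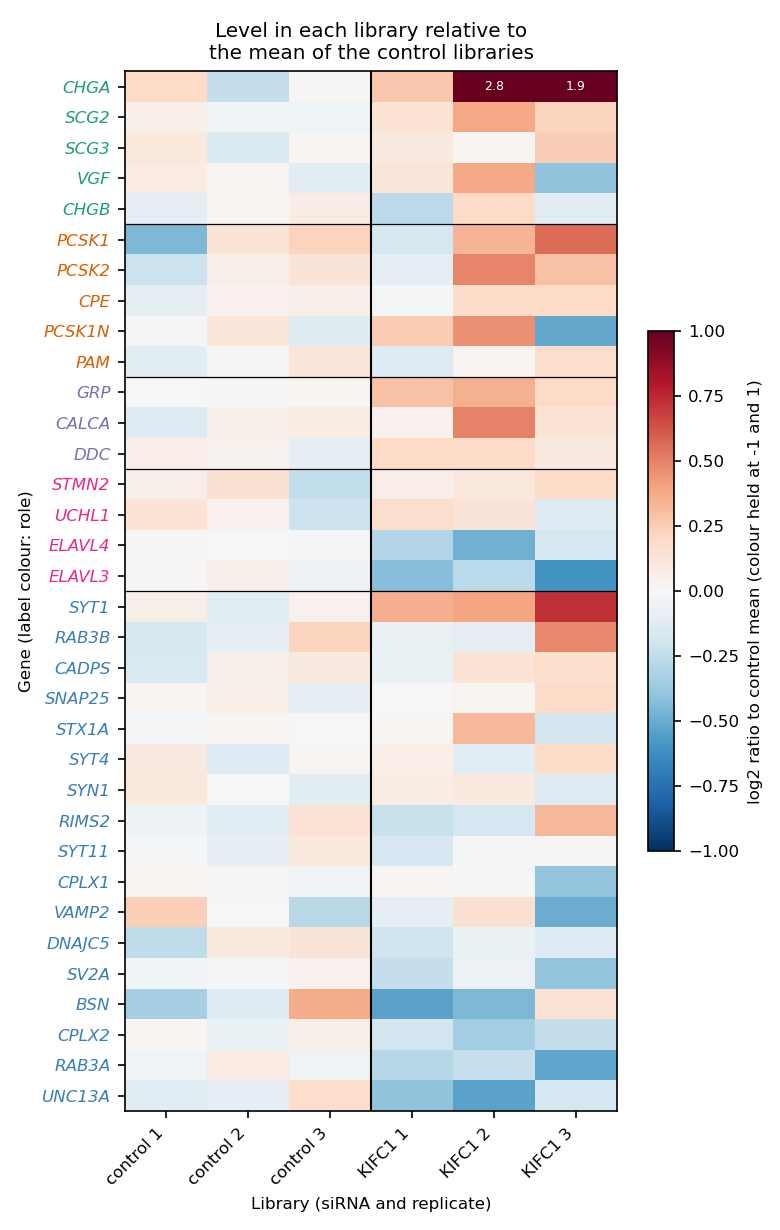
Log2 ratio of each library to the mean of the 3 control libraries for the 34 tested genes, grouped by role, with colour held at -1 and 1 and values beyond it printed. *CHGA* stands out in KIFC1 siRNA replicates 2 and 3 (53.9 and 29.5 CPM), and *ELAVL3*, *ELAVL4*, *RAB3A*, *UNC13A*, *SV2A*, *CPLX2* and *DNAJC5* are below the control mean in all 3 KIFC1 siRNA libraries.

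*CHGA* had the largest log2 fold change of the set and was the most uneven. Its level was 8.82, 6.51 and 7.73 CPM in the control libraries and 9.26, 53.9 and 29.5 CPM in the KIFC1 siRNA libraries. The groups did not overlap, but KIFC1 siRNA replicate 1 lay just above the highest control, whereas replicates 2 and 3 lay far above it. In reads these were 147, 104 and 142 against 145, 818 and 482, so counting error is small beside this spread. The log2 fold change was 2.00 ± 0.66 (standard error; edgeR adjusted p = 0.436). Without KIFC1 siRNA replicate 1 it was 2.44 with an adjusted p of 0.00112 in edgeR, and without replicate 2 it was 1.33 with an adjusted p of 0.404, while over the alternatives the adjusted p reached 0.945. Mitochondrial genes took 8.31%, 13.1% and 9.18% of the counts in the 3 KIFC1 siRNA libraries, and the non-neuroendocrine markers without *MYC* and *CD44* were highest in replicate 2, and the part of either in the level of *CHGA* was not tested. The other genes whose windows hold the response element overlapped between the groups. *VGF* was at 38.7, 37.4 and 33.8 CPM with control siRNA and at 39.8, 47.6 and 27.7 CPM with KIFC1 siRNA. *PCSK1* was at 33.1, 49.6 and 52.8 CPM against 40.1, 57.3 and 66.6 CPM, and *SYN1* at 51.9, 48.0 and 44.8 CPM against 50.8, 51.6 and 44.1 CPM. The part of the element in any of these levels was not tested.

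*SCG2* lay above its controls by less, at 299.6, 282 and 279 CPM with control siRNA and 315, 375 and 335 CPM with KIFC1 siRNA. The groups did not overlap, and the log2 fold change was 0.25 ± 0.10 (standard error; edgeR adjusted p = 0.463). The other granins overlapped between the groups, with log2 fold changes of 0.12 for *SCG3*, 0.07 for *VGF* and -0.05 for *CHGB*. The processing genes also overlapped, from 0.03 for *PAM* to 0.27 for *PCSK1*. *PAM* was at 417, 442 and 486 CPM with control siRNA and at 411, 456 and 507 CPM with KIFC1 siRNA, with replicate 3 highest in both groups. *PCSK1N* was less even after KIFC1 siRNA, at 65.5, 75.2 and 38.5 CPM, against 54.5, 59.8 and 50.3 CPM in the controls.

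Of the products, *GRP* was among the 3 highest log2 fold changes of the set. It was at 23.1, 22.7 and 23.4 CPM with control siRNA and at 28.2, 29.6 and 26.5 CPM with KIFC1 siRNA. All 3 KIFC1 siRNA libraries lay above all controls, with a log2 fold change of 0.28 ± 0.11 (standard error; edgeR adjusted p = 0.450). *DDC* did not overlap either, at 309.6, 303 and 277 CPM against 341, 338 and 315 CPM, and its log2 fold change was 0.16 (adjusted p = 0.702 in edgeR). *CALCA* overlapped, with a log2 fold change of 0.24.

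The calcium sensor of fast release, *SYT1*, was the gene with the highest log2 fold change in the exocytosis machinery. It was at 198, 176 and 196 CPM with control siRNA and at 245, 250.4 and 316 CPM with KIFC1 siRNA, with no overlap. The log2 fold change was 0.51 ± 0.12 (standard error; edgeR adjusted p = 0.0919). With the replicate block the adjusted p was 0.000179 in edgeR, and with DESeq2 it was 0.00981. With 1 library left out the log2 fold change stayed between 0.38 and 0.57, and over all alternatives the adjusted p ranged from 0.000179 to 0.451. *SYT4*, the highest exocytosis gene per length, was at 267, 229 and 256 CPM against 263, 233 and 285 CPM. Both other synaptotagmins overlapped between the groups, with log2 fold changes of 0.05 for *SYT4* and -0.05 for *SYT11*.

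**Figure D4:**
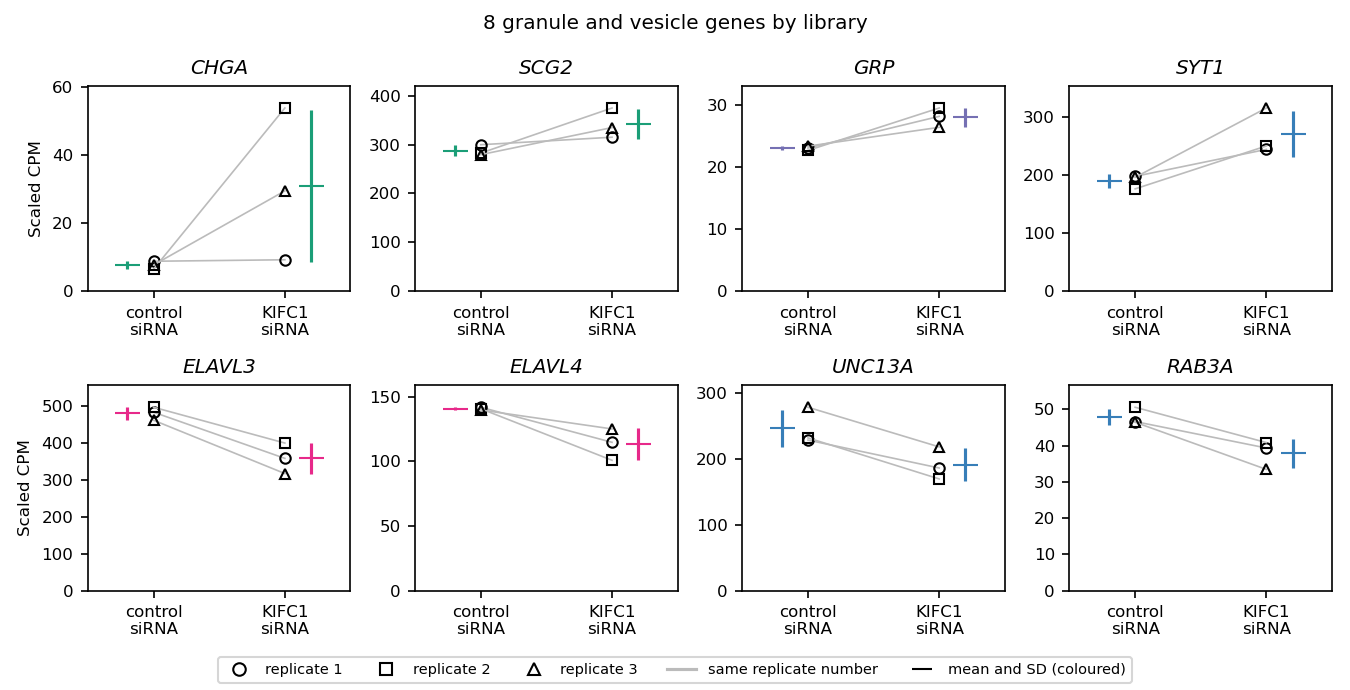
Scaled CPM of 8 genes in every library, with lines joining the same replicate number and coloured bars for the mean ± SD (n = 3). *SYT1* is higher and *ELAVL3*, *ELAVL4*, *UNC13A* and *RAB3A* are lower in all 3 KIFC1 siRNA libraries than in any control, and *CHGA* splits into 1 library at 9.26 CPM and 2 at 29.5 and 53.9 CPM.

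At the other end stood *ELAVL3*, the neuronal Hu protein gene. It was at 484, 498 and 462 CPM with control siRNA and at 359, 400.3 and 318 CPM with KIFC1 siRNA. The groups did not overlap, and the log2 fold change was -0.42 ± 0.11 (standard error; edgeR adjusted p = 0.128). With the replicate block the adjusted p was 0.000300 in edgeR, with DESeq2 it was 0.0178, and over the alternatives it reached 0.523. Its relative *ELAVL4* was at 142, 141 and 139.7 CPM against 115, 101 and 125 CPM, a log2 fold change of -0.31 ± 0.11 (standard error; edgeR adjusted p = 0.331). With the replicate block the adjusted p of *ELAVL4* was 0.0252 in edgeR, and DESeq2 gave 0.220. With 1 library left out and no block, it ran from 0.0387 without KIFC1 siRNA replicate 3 to 0.801 without control siRNA replicate 3. The remaining neuronal markers overlapped between the groups, with *UCHL1* at 1358, 1269.9 and 1069 CPM against 1393, 1346 and 1128 CPM, and log2 fold changes of 0.06 for *UCHL1* and 0.12 for *STMN2*.

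*UNC13A*, which encodes the priming factor Munc13-1, was at 228, 231 and 278 CPM with control siRNA and at 186, 169 and 218 CPM with KIFC1 siRNA. The groups did not overlap, and the log2 fold change was -0.36 ± 0.12 (standard error; edgeR adjusted p = 0.316). With the replicate block its adjusted p was 0.00350 in edgeR, and DESeq2 gave 0.176. With 1 library left out and no block, the adjusted p in edgeR ran from 0.0265 without KIFC1 siRNA replicate 3 to 0.945 without control siRNA replicate 3. *RAB3A*, the small GTPase that docks vesicles, was at 46.6, 50.6 and 46.5 CPM against 39.3, 40.8 and 33.4 CPM. Its log2 fold change was -0.34 ± 0.12 (standard error; edgeR adjusted p = 0.325), with the replicate block the adjusted p was 0.0316, and over the alternatives it reached 0.879. In the annotation 9.2% of the exon bases of *RAB3A* lie opposite *MPV17L2*, and the strand setting of the counting is not given. *RAB3B*, its paralog, moved with the replicate number instead, at 482, 505 and 629 CPM against 511, 505 and 749 CPM, a log2 fold change of 0.13.

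The remaining exocytosis genes had no call in edgeR, DESeq2 or the blocked fit. *CPLX2*, a complexin that clamps SNARE assembly, was at 60.7, 56.8 and 62.3 CPM against 52.9, 47.2 and 50.8 CPM, with no overlap and a log2 fold change of -0.25. Its paralog *CPLX1* was at -0.12. The vesicle glycoprotein gene *SV2A* did not overlap either (log2 fold change -0.22). The SNARE genes overlapped, with log2 fold changes of 0.08 for *SNAP25*, 0.07 for *STX1A* and -0.12 for *VAMP2*. The scaffold *BSN* was at 42.1, 48.2 and 68.2 CPM against 36.5, 38.6 and 58.5 CPM. It was highest in replicate 3 of both groups and lower after KIFC1 siRNA within every replicate number, with a log2 fold change of -0.25. The log2 fold changes of *RIMS2* (a scaffold that tethers calcium channels), *SYN1* (a vesicle-clustering phosphoprotein), *CADPS* (a priming factor of dense-core granules) and *DNAJC5* (a vesicle chaperone) lay between -0.13 and 0.08. Across the 34 genes, 12 were higher and 7 lower after KIFC1 siRNA within all 3 replicate numbers, and 15 were mixed. The same count was not made over all tested genes, so no share stands beside it.

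The genes were also read for 2 words in their 3' UTRs (GENCODE 44 canonical transcripts, sense strand). An earlier scan of these same libraries had picked GAGATCT for genes that fell and GCAACC for genes that rose, so what follows is a description and no independent evidence. GAGATCT occurs 1 time in the whole mRNA of *KIFC1* and GCAACC 0 times. GAGATCT was present in 6 of the 34 genes (17.6%), against 8.97% of 12972 tested genes with a 3' UTR of at least 50 bases, and the median 3' UTR length was 1392 bases in the set and 1341 bases over all genes. The 6 genes were *ELAVL3*, *UNC13A*, *BSN*, *SV2A*, *SYT11* and *SYT4*, with log2 fold changes from -0.42 to 0.05, 5 of them negative, and a median of -0.23. The 28 genes without the word had a median of 0.08. The 3' UTRs of the 6 genes ran from 1696 bases (*SV2A*) to 4718 bases (*UNC13A*), all above both median lengths. The part of 3' UTR length in this difference was not tested. GCAACC was present in 8 genes (23.5%, against 23.2%), with a median log2 fold change of 0.10, and *SYT1* was the highest of them. *ELAVL4* and *RAB3A*, which were lower in the blocked fit, have neither word, and *SYT4*, with GAGATCT, was not lower. The sites of the 4 lowest of the genes with GAGATCT and of *SYT1* are shown on GRCh38, in the direction of the mRNA, with the word in capitals.
ELAVL3 (minus strand, chr19:11453323-11453329): ggttctctgcaGAGATCTctcctggaccc
UNC13A (minus strand, chr19:17604338-17604344): ttggggttgggGAGATCTgcagaagcatc
BSN (plus strand, chr3:49669623-49669629): ctgtgagccagGAGATCTgggctggagct
SV2A (minus strand, chr1:149904157-149904163): cacagtctaggGAGATCTgagggcatccg
SYT1 (plus strand, chr12:79450446-79450451): agaaaactgaaGCAACCtcttatgtata
The coordinates cover the word alone. *SYT11* has 2 copies of GAGATCT and 1 of GCAACC, with a log2 fold change of -0.05.

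Other genes of the pathway were taken from 5 lists, which were drawn up with earlier results of these data known. In edgeR 2 of them had an adjusted p under 0.05, both higher after KIFC1 siRNA, and 0 were lower. For this and the list counts below, the shares over all 14777 genes were 0.697% in edgeR and 9.26% at an unadjusted p under 0.05. They were 5.83% in edgeR with the replicate block and 1.85% with DESeq2. *SLC18A2*, the vesicular monoamine transporter VMAT2 that loads the amines made by *DDC*, rose from 119, 120.8 and 121 CPM to 156, 194 and 189 CPM. Its log2 fold change was 0.58 ± 0.11 (standard error; edgeR adjusted p = 0.0407), and that adjusted p went up to 0.220 with 1 library left out. *STX2*, a plasma membrane syntaxin, rose from 34.5, 30.0 and 28.8 CPM to 49.2, 46.3 and 44.5 CPM. Its log2 fold change was 0.59 ± 0.12 (standard error; edgeR adjusted p = 0.0454), and the adjusted p went up to 0.314 with 1 library left out. The call of *SLC18A2* was lost without any 1 of the controls or KIFC1 siRNA replicate 2, and that of *STX2* without any library but KIFC1 siRNA replicate 3. The 3' UTR of *SLC18A2* has 1 copy of GCAACC and that of *STX2* has 3. GCAACC was present in 23.2% of tested genes with a 3' UTR of at least 50 bases. The word had been picked from these same libraries for genes that rose, so its presence here is no independent evidence.

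In the list of other granule enzymes and granule biogenesis genes, 27 of 32 were tested, with a median log2 fold change of 0.07. *TPH2*, a serotonin-synthesis enzyme, was lowest at -0.47 (adjusted p = 0.340 in edgeR, and 0.0414 with the replicate block). Of 35 other peptide hormones and neuropeptides, 17 were tested and 12 had at most 3 reads in every library. Their median log2 fold change was 0.29, with 14 positive and 3 negative, and none had an adjusted p under 0.05 in edgeR or DESeq2, where 3 had an unadjusted p under 0.05 in edgeR. Among those with a mean log2 CPM of at least 2, the limit kept for the extremes of each list, these were *ADM*, the vasodilator adrenomedullin, at 0.53 and *NTS*, the neurotensin precursor, at -0.11, the latter at 1434 ± 247 CPM (SD, n = 3) with control siRNA. With the replicate block 3 of them were called, all higher, namely *ADCYAP1*, *NMB* and *PNOC*, which are named after their values were seen. *NMB* and *PNOC* lay below that limit, at a mean log2 CPM of 0.99 and 0.60. *NMB* had 17, 32 and 15 reads with control siRNA and 30, 50 and 37 with KIFC1 siRNA, and its groups overlapped in CPM. Without the block the edgeR adjusted p was 0.164 for *ADCYAP1*, 0.382 for *NMB* and 0.294 for *PNOC*.

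Of 59 other fusion and priming genes, 47 were tested, with a median of 0.05. At an unadjusted p under 0.05 in edgeR 5 were higher and 3 lower, with the replicate block 3 were called higher and 4 lower, and DESeq2 called 3. Over all genes the shares in either direction were 9.26%, 5.83% and 1.85%. The lowest was *STXBP6*, a SNARE-binding protein gene, at -0.85 (adjusted p = 0.253 in edgeR, and 0.00142 with the replicate block). Of 32 other active-zone and synaptic vesicle genes, 26 were tested, with a median of -0.03 and no call in edgeR, where 1 higher and 3 lower had an unadjusted p under 0.05 and DESeq2 called 2. Their extremes were *SYN2*, a synapsin, at 0.27 and *SLC32A1*, the vesicular GABA transporter, at -0.73, the latter with an adjusted p of 0.0205 with the replicate block in edgeR. Of 36 other neuronal genes, 32 were tested, with a median of -0.12, 10 positive and 22 negative, and no call in edgeR, where 2 lower had an unadjusted p under 0.05 and DESeq2 called 1. *NCAM1*, the adhesion molecule used as the SCLC marker CD56, was lowest at -0.42 (adjusted p = 0.137 in edgeR, 0.000646 with the replicate block), and *RTN1*, a neuronal reticulon, highest at 0.15.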

How the data were processed

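Per the labels and the study's methods, the authors aligned reads to GRCh38 with HISAT2 2.2.1, counted them per gene with featureCounts 2.0.8 and named DESeq2 1.46.0 for testing. The annotation, strand setting and treatment of shared reads are not given in the sources used here. The deposited values are whole read counts per NCBI gene ID, without normalization. Symbols came from RefSeq (27745 of 28395 IDs matched). The test was the robust quasi-likelihood F-test of edgeR 4.0.16 (R 4.3.3) after TMM scaling and filterByExpr, keeping *KIFC1*, with Benjamini-Hochberg adjusted p-values over 14777 genes and a threshold of 0.05. The standard error was taken as the size of the log2 fold change divided by the root of F. CPM were scaled by TMM, and lengths came from GENCODE 44. Alternatives used DESeq2 1.42.0 and limma 3.58.1. Figures were made with matplotlib 3.10.9 in Python 3.11.15.

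Deviations from the group means correlated across 11803 genes at 0.488, 0.386 and 0.454 between libraries of the same replicate number. Between others they correlated at -0.424 to -0.0310. Deviations sum to 0 within a group, so positive values between like numbers push the others below 0. Libraries of the same number thus deviated together, and the labels do not say what the numbers mark. The members, lists and words were chosen with earlier results of these data known. Full statistics are given for *KIFC1*, any member with an adjusted p under 0.05, and the 3 highest and 3 lowest log2 fold changes, and library values also for the highest level per length in each role; library values of *ELAVL4*, *VGF*, *PCSK1*, *PCSK1N*, *SYN1*, *RAB3B*, *CPLX2* and *BSN* were added after they were seen. From each pathway list the called genes and the extremes with a mean log2 CPM of at least 2 are named, except for an item that is not reported here. The fit was tested on simulated data.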

Additional observations from a re-analysis of the deposited data

How the results depend on the processing

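*KIFC1* had only 0 to 14 reads per library. With the replicate block, 407 genes were called higher and 454 lower over all genes, against 48 and 55 without it, and 1 member was higher and 4 lower. In the same blocked fit 10 pathway list genes were higher and 12 lower, against 2 and 0. DESeq2 called 126 higher and 148 lower over all genes, 1 member in each direction, and 4 list genes in each direction. Without the filter on low counts edgeR called 121 higher and 144 lower, 1 member higher (*SYT1*) and 3 list genes lower. With 1 library left out in turn, calls over all genes ran from 9 to 194 higher and from 15 to 274 lower, member calls from 0 to 1 higher and from 0 to 2 lower, and list calls from 0 to 6 in either direction. The highest counts came without KIFC1 siRNA replicate 3 (*SYT1* higher, *ELAVL4* and *UNC13A* lower), and *CHGA* was called without KIFC1 siRNA replicate 1. The median level of the set was 24.8 CPM per kb, taken within each control library and averaged, and 31.3 with the longest transcript as the length. The cause of these shifts was not tested.

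No named gene changed sign under another test, scaling or filter. With 1 library left out, these log2 fold changes crossed 0: *CHGB* (-0.19 to 0.050), *VGF* (-0.12 to 0.25), *PCSK1N* (-0.084 to 0.36), *PAM* (-0.049 to 0.10), *UCHL1* (-0.028 to 0.15), *RAB3B* (-0.085 to 0.25), *STX1A* (-0.083 to 0.18), *VAMP2* (-0.29 to 0.035), *SYT4* (-0.015 to 0.12), *CPLX1* (-0.19 to 0.0038), *SYN1* (-0.033 to 0.087), *RIMS2* (-0.20 to 0.099), *NTS* (-0.25 to 0.040) and *NSF* (-2.82 to 1.27). The block changed the call of *SYT1*, *ELAVL3*, *ELAVL4*, *UNC13A*, *RAB3A*, *KIFC1*, *TPH2*, *ADCYAP1*, *NMB*, *PNOC*, *STXBP6*, *SLC32A1*, *NCAM1*, *NSF* and *NAPB*, and of no other named gene.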

Other observations

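*NSF*, the ATPase that takes used SNARE complexes apart, was named after its values were seen. It had 10, 196 and 11 reads with control siRNA and 8, 48 and 12 reads with KIFC1 siRNA, so that replicate 2 was highest in both groups. Its log2 fold change was -1.60 ± 1.55 (standard error; edgeR adjusted p = 0.871), and with the replicate block the adjusted p was 0.0458.

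*NAPB*, which encodes a brain-enriched SNAP adaptor of *NSF*, was also named after its values were seen. It was at 63.3 ± 1.69 CPM (SD, n = 3) with control siRNA and at 47.8 ± 1.27 CPM with KIFC1 siRNA, a log2 fold change of -0.41 (edgeR adjusted p = 0.119, and 0.00697 with the replicate block).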
